A study of Mus musculus with 32 samples.

Results

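The genes described here are 10 genes of the killing machinery of natural killer (NK) cells and cytotoxic T cells: the granule genes Gzma, Gzmb, Prf1 and Nkg7, the receptor genes Ncr1, Klrk1, Klrb1c and Klrd1, and the transcription factor genes Tbx21 and Eomes. They were picked by symbol, by a rule that sets no measured value, though with earlier results of these data known. All 10 were found among the 29511 genes of the count table and again in the FPKM table. RNA was sequenced from 32 tissues of virgin female FVB/N mice, put into experiments at 6 to 8 weeks of age, that either lacked Clic4, a chloride intracellular channel gene, in the whole animal (KO) or were wildtype littermates (WT). Tumors of 6DT1 cells, a line explanted from a mammary tumor of an MMTV-Myc mouse of the FVB strain, were taken 14 days after injection into the fourth mammary fat pad, from 6 KO and 6 WT hosts. Lungs were taken from 6 KO and 6 WT mice that carried such tumors for 14 days, and baseline lungs without a tumor (control) from 4 KO and 4 WT mice. The 6DT1 cells carry Clic4 in both hosts, so a tumor from a KO host is KO only in its host cells. The KO allele lacks exon 2 and was backcrossed to FVB/N from a mixed background. The samples are whole tissues, in which fewer cells of a type and less RNA per cell cannot be told apart. The labels name the samples of a group as separate samples and do not describe them further, so the p-values measure the spread between these samples.

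NK cells and cytotoxic CD8 T cells kill by releasing granules toward a target cell. Perforin, the product of Prf1, forms pores in the target membrane, and granzymes, serine proteases such as the products of Gzma and Gzmb, enter and start cell death, while Nkg7 encodes a granule membrane protein needed for efficient release. NK cells decide by weighing activating against inhibitory receptors. Ncr1 encodes NKp46, an activating receptor found mainly on NK cells and some innate lymphoid cells, Klrk1 encodes the activating receptor NKG2D of NK and CD8 T cells, Klrb1c encodes the NK1.1 antigen of some mouse strains, and Klrd1 encodes CD94, which pairs with NKG2 proteins to read the nonclassical class I molecule Qa-1. The T-box factors T-bet, from Tbx21, and EOMES drive maturation and granule gene expression in both cell types, and T-bet also works in helper T cells. The granule genes, Klrk1, Klrd1, Tbx21 and Eomes are thus shared by NK cells and T cells, whereas Ncr1 is the member most restricted to NK cells.

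The libraries held 4446323 to 8318711 counts assigned to genes. Levels are given as FPKM (fragments per length of transcript and per sequencing depth, on a linear scale), and differences as log2 fold changes with their standard error (SE) from edgeR's quasi-likelihood F test on the counts. A gene was called at a false discovery rate (FDR, the Benjamini-Hochberg adjusted p over all genes tested) of 0.05. Clic4, as a check of the labels, was at 55.4 to 74.6 FPKM in the 10 KO lungs and at 155 to 230 FPKM in the 10 WT lungs, without overlap (log2 fold change -1.49 ± 0.09 SE at 14 days and -1.46 ± 0.11 SE in controls, adjusted p = 2.06e-09 and 1.73e-07 in edgeR). The counts are sums over the whole gene, so the deleted exon was not resolved. In tumors, Clic4 was at 58.9 to 69.0 FPKM in KO hosts and at 74.7 to 82.2 FPKM in WT hosts. The tissue labels were checked against alveolar type 2 markers, whose summed level (Sftpc, Sftpb and Sftpa1) was at most 0.91 FPKM in tumors and at least 9699 FPKM in lungs.

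Positions are from GENCODE M21 on GRCm38, as the whole gene. The receptor genes Klrk1 (6:129610323-129623864, minus strand), Klrd1 (6:129591782-129598775, plus strand) and Klrb1c (6:128778485-128789215, minus strand) lie together on chromosome 6, in the NK gene complex. Klrb1c overlaps the gene model Gm44511 on the same strand, and Eomes (9:118478212-118486132, plus strand) has an antisense neighbor, Gm33460, so reads there may be split between overlapping genes. Ncr1 (7:4337724-4345164) and Nkg7 (7:43437073-43438249) are on the plus strand of chromosome 7, and Gzmb (14:56258838-56262260, minus strand) and Gzma (13:113093825-113100981, minus strand) are on separate chromosomes. Prf1 (10:61297833-61304680, plus strand) and Tbx21 (11:97098071-97115331, minus strand) complete the list.

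Promoters, the 250 bases before the transcription start in RefSeq (GRCm38.p6, C57BL/6J), were searched on both strands for short motifs of factors that act in killer cells. Of 10 members 9 had an entry, and Klrd1 had none. TGTGGTT, a core recognized by Runx factors, was in 4 of the 9 promoters (Klrk1, Ncr1, Gzmb and Gzma) and in 4.46% of 27025 promoters of the same length. GGTGTGA, a T-box core, was in 1 of 9 (Nkg7) and in 3.31% of all promoters. TTCNNNGAA, the GAS element bound by STAT dimers, was in 1 of 9 (Nkg7) and in 7.18% of all, and the core of the interferon-stimulated response element (ISRE), a pair of GAAA blocks with 2 bases between them, was in 2 of 9 (Gzma and Eomes) and in 3.04% of all. A match is a description of the letters and not a binding site. The promoters with a Runx core and that of Nkg7 are shown 5′ to 3′ on the strand of the gene, with the matches in capitals. Each run ends at the base before the RefSeq start, except that of Nkg7, which ends where the GENCODE gene begins. For Gzma the match to the interferon element is the first and that to the Runx core the second, both read on the opposite strand.
Klrk1: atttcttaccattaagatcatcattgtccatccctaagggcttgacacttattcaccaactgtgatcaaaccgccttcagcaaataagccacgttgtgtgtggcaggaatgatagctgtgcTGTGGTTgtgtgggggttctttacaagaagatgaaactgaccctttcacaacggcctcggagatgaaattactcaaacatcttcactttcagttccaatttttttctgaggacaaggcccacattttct
Ncr1: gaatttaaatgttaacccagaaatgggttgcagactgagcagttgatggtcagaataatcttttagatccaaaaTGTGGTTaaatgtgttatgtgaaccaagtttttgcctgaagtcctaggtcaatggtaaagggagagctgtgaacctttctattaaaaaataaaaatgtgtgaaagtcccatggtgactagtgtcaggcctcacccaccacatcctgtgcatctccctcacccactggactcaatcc
Gzmb: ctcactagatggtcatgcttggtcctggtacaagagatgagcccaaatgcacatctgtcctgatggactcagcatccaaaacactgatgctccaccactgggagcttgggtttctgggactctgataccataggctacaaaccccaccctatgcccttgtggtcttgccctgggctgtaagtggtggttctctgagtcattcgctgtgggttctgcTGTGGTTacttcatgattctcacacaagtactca
Gzma: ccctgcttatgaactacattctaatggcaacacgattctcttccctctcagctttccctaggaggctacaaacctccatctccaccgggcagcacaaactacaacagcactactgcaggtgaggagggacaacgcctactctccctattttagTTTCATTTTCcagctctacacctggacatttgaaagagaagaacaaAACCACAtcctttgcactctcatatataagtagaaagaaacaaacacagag
Nkg7: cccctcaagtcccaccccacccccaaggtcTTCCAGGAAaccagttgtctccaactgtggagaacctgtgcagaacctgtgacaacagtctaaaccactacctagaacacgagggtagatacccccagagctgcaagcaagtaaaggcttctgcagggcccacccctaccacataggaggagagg
The Klrk1 sequence is chr6:129623865-129624114, minus strand, with its match 129 to 123 bases before the start. The Ncr1 sequence is chr7:4337465-4337714, plus strand (match at 176 to 170), and the Gzmb sequence chr14:56262335-56262584, minus strand (match at 34 to 28). The Gzma sequence is chr13:113100982-113101231, minus strand, with matches 97 to 88 and 51 to 45 bases before the start. The Nkg7 sequence, chr7:43436888-43437072 on the plus strand, shows the GAS match at 220 to 212, and its T-box match at 13 to 7 lies beyond the stretch printed, inside the GENCODE gene.

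Across the 6 groups, the members were ordered in 2 ways. Group means were highest in the WT control lung for 7 of 10 members (Gzma, Nkg7, Ncr1, Klrb1c, Klrd1, Tbx21 and Eomes), and lowest in tumors from WT hosts for 7 of 10 (the same list without Eomes, and with Klrk1). The other 3, Gzmb, Prf1 and Klrk1, had their highest mean in tumors from KO hosts. Gzma had the widest spread of means, from 36.0 ± 13.7 FPKM (SD, n = 4) in WT control lungs to 3.033 ± 1.998 FPKM (SD, n = 6) in tumors from WT hosts. Gzmb went the other way, from 14.4 ± 4.57 FPKM (SD, n = 6) in tumors from KO hosts to 3.20 ± 1.36 FPKM (SD, n = 4) in KO control lungs. Tbx21 and Eomes, the factor genes, were low in all groups, with means of 0.187 to 1.36 FPKM and 0.593 to 1.10 FPKM. In none of the 50 pairs of groups next to each other in these orders did the ranges lie apart. Neighbors in an order of means are the groups closest in mean, and the share over all genes was not computed, so this is not read as a trait of the members. Overlap of the ranges does not show that neighbors were alike, and Ncr1 and Klrb1c passed the test between KO tumors and KO 14-day lungs, neighbors in their orders.

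**Figure D1:**
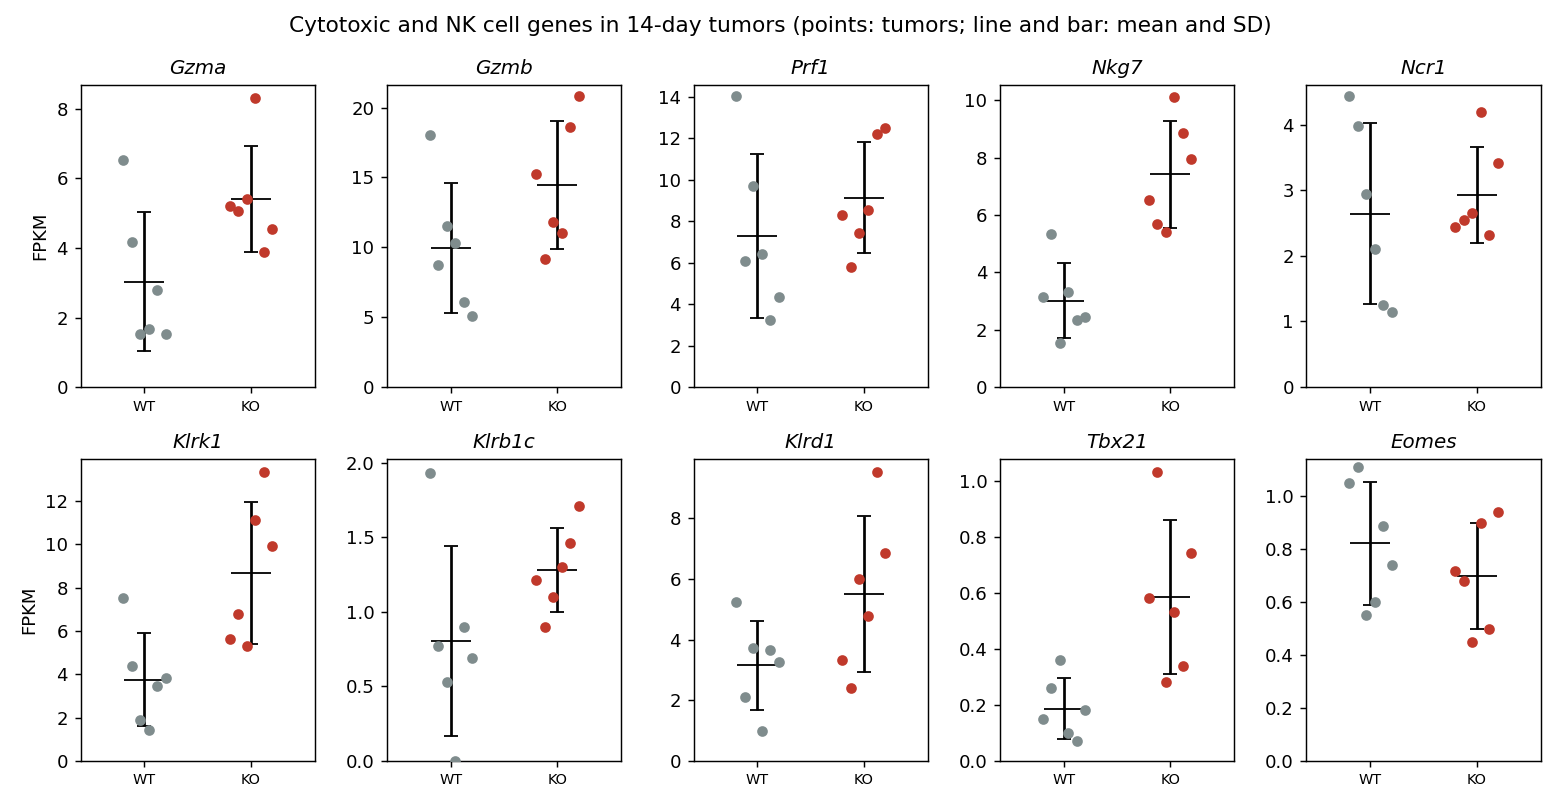
FPKM of the 10 genes in each of the 12 tumors, for KO and WT hosts, with 1 point per tumor, a line at the group mean and a bar of 1 SD either side. For Nkg7 the 6 KO tumors, at 5.4 FPKM and above, all lie over the 6 WT tumors, and for the other 9 genes the groups overlap.

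The first comparison asked whether host loss of Clic4 went with a different level of the killing machinery in the primary tumor. Nkg7 and Klrk1 were higher in tumors from KO hosts, 7 others did not pass the test, and Tbx21 was not tested. Nkg7 was at a lowest, median and highest of 5.4, 7.23 and 10.11 FPKM in the 6 KO tumors and of 1.53, 2.785 and 5.34 FPKM in the 6 WT tumors. The groups did not overlap, although the gap was narrow, since WT tumor 2 reached 5.34 FPKM and KO tumor 3 was at 5.4 FPKM. Nkg7 was 2.55-fold higher in KO hosts (log2 fold change 1.35 ± 0.26 SE, adjusted p = 0.0093 in edgeR, n = 6 per group, 17 to 39 counts against 5 to 18). Klrk1 was at 5.32, 8.35 and 13.35 FPKM in KO tumors and at 1.43, 3.65 and 7.5 FPKM in WT tumors. Here the groups overlapped through WT tumor 1, the highest of its group at 7.5 FPKM and above 3 of the KO tumors. Klrk1 was 2.27-fold higher (log2 fold change 1.19 ± 0.27 SE, adjusted p = 0.0306 in edgeR). Of all genes tested, 2.51% were called, and 2.02% were called higher. Nkg7 was also the only member whose groups lay apart, against 1.42% of all genes.

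The low-count filter let 9 of the 10 members into this test, and Tbx21, with 3 to 11 counts in KO tumors and 1 to 4 in WT tumors, stayed out. Gzma, Klrb1c and Klrd1 had a median of fewer than 10 counts in WT tumors, and Nkg7 a median of 10, so that these 4 passed mainly through the KO group. Without the filter all 10 members were tested among 26499 genes, and the same 2 were called, where 0.97% of all genes were called higher. The median log2 fold change in that fit was 0.81 over the 10 members and 0.00 over all genes. Klrk1 was lost from the calls when any 1 of 8 libraries was left out (WT tumors 2, 3, 4 or 5, or KO tumors 2, 4, 5 or 6), with adjusted p of 0.00283 to 0.0941 over the 12 such fits, while Nkg7 was called in all 12 (0.00409 to 0.0394).

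The other granule genes leaned the same way without being called. Gzma was at 3.87, 5.14 and 8.32 FPKM in KO tumors and at 1.53, 2.225 and 6.53 FPKM in WT tumors. The groups overlapped, with WT tumor 1 at 6.53 FPKM above all but one KO tumor (log2 fold change 0.84 ± 0.33 SE, adjusted p = 0.237 in edgeR). Without WT tumor 1 the Gzma difference was 1.21 and was called (adjusted p = 0.0474 in edgeR). Gzmb was at 9.18, 13.53 and 20.83 FPKM in KO tumors and at 5.1, 9.55 and 18.02 FPKM in WT tumors (0.59 ± 0.27 SE, adjusted p = 0.308). Prf1 was at 5.8, 8.44 and 12.51 FPKM in KO tumors and at 3.23, 6.255 and 14.04 FPKM in WT tumors (0.38 ± 0.29 SE, adjusted p = 0.578). The Prf1 difference was 0.67 without WT tumor 1 and 0.22 without WT tumor 5. For both, the WT tumors spanned most of the KO range, and WT tumor 1 was the highest of its group. That tumor was the highest WT tumor for 7 of the 10 members.

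The receptor genes apart from Klrk1 were not called. Klrd1 was at 2.42, 5.395 and 9.54 FPKM in KO tumors and at 0.97, 3.455 and 5.24 FPKM in WT tumors (0.83 ± 0.36 SE, adjusted p = 0.278). Klrb1c was low in both, at 0.9 to 1.71 FPKM and at 0 to 1.93 FPKM, with no count in WT tumor 4 (0.76 ± 0.44 SE, adjusted p = 0.443). The Klrb1c difference was 1.31 without WT tumor 1 (adjusted p = 0.125 in edgeR). Ncr1, the member most restricted to NK cells, had nearly the same median in both groups, at 2.32, 2.605 and 4.19 FPKM in KO tumors and at 1.15, 2.525 and 4.44 FPKM in WT tumors (0.20 ± 0.31 SE, adjusted p = 0.812). The KO range of Ncr1 lay within the WT range, and its difference was 0.042 (without WT tumor 5) to 0.42 (without WT tumor 1) over the fits that left out 1 library, moving by more than 1.5 times also without WT tumor 2 or 6 or KO tumor 4.

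Both factor genes were low. Tbx21 was at 0.28, 0.555 and 1.03 FPKM in KO tumors and at 0.07, 0.165 and 0.36 FPKM in WT tumors, and only KO tumors 3 and 5, at 0.28 and 0.34 FPKM, lay below the highest WT tumor. It was tested only without the filter, where its log2 fold change was 1.66 ± 0.48 SE (adjusted p = 0.136 in edgeR). Eomes was the member with a negative difference, at 0.45, 0.7 and 0.94 FPKM in KO tumors and at 0.55, 0.815 and 1.11 FPKM in WT tumors (-0.23 ± 0.24 SE, adjusted p = 0.707 in edgeR). The 2 groups of Eomes overlapped over most of their range, and its difference was more than 1.5 times smaller without WT tumor 1 or 2 or KO tumor 3 or 5 (-0.15 to -0.14).

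Other genes of the pathway were called in the same comparison. Of 15 other granule and killing genes tested, 3 were higher in KO hosts and none lower, with a median log2 fold change of 0.46 over the list and -0.01 over all genes. They were the death ligand gene Tnfsf10, which encodes TRAIL (1.60, adjusted p = 0.000322), Unc13d, which primes granules for fusion (0.74, adjusted p = 0.000496), and Srgn, whose proteoglycan packs granule contents (0.50, adjusted p = 0.0147). Granzymes C to G, which share sequence with each other so that their counts may be split, did not pass the test, with log2 fold changes of -0.53 (Gzmc), -0.09 (Gzmd), -0.03 (Gzme), 0.15 (Gzmf) and 0.24 (Gzmg). Of 9 other genes tested that were listed as NK receptors, Klra2 (1.78, adjusted p = 0.0131) and Klrb1b (1.29, adjusted p = 0.0144) were higher. Klrb1b encodes an inhibitory receptor of the family of Klrb1c, and the list median was 1.01. The cells that held these transcripts were not determined, so neither call is assigned to NK cells. Of 7 receptor adaptor genes, Zap70, a kinase that passes on signals of the T cell receptor and NK receptors, was higher (1.48, adjusted p = 0.00348).

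Of these lists, the genes of cytokines and their receptors had the highest share of calls, and all of those called were receptor genes. Of 9 tested, 6 were higher and none lower (median 0.70), namely Il2rg, the common gamma chain (0.66, adjusted p = 0.000831), Il12rb1, a receptor chain for interleukin 12 (1.96, adjusted p = 0.00885), Il18rap, a receptor chain for interleukin 18 (0.70, adjusted p = 0.0171), Il15ra, Il18r1 and Il2rb. The chemokine receptor gene Cxcr6, of the trafficking genes, was higher (0.83, adjusted p = 0.00251). Of 7 receptor ligand genes, H2-T23, which encodes Qa-1, the ligand read by CD94, was higher (1.01, adjusted p = 0.000359). None of 9 other transcription factor genes was called, with a smallest adjusted p of 0.0521.

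Ptprc and the T cell markers also had higher estimates in KO hosts. Ptprc, the pan-leukocyte gene that encodes CD45, was at 48.22, 60.34 and 69.22 FPKM in KO tumors and at 20.87, 38.7 and 66.5 FPKM in WT tumors (log2 fold change 0.63 ± 0.21 SE, adjusted p = 0.146 in edgeR). All 11 T cell markers tested had a positive log2 fold change, with a median of 0.88, and Cd3g (1.31, adjusted p = 0.0389) and Cd3d (1.46, adjusted p = 0.0391) were called, while Cd3e (1.13, adjusted p = 0.104), Cd8a (1.14, adjusted p = 0.279) and Cd4 (0.66, adjusted p = 0.304) were not. Their summed level over 13 genes was 51.2 to 90.0 FPKM in KO tumors and 21.7 to 93.1 FPKM in WT tumors. WT tumor 2, at 93.1 FPKM, stood apart, since the other 5 WT tumors were at 21.7 to 39.2 FPKM, below all KO tumors. Without WT tumor 2 Nkg7 was called (1.57, adjusted p = 0.00409 in edgeR) and Klrk1 was not (1.23, adjusted p = 0.0532). None of the 4 macrophage, 3 neutrophil, 4 mast cell, 3 plasmacytoid dendritic cell, 3 epithelial or 2 endothelial markers tested was called. Their log2 fold changes were 0.45 to 1.04 for mast cell and 0.13 to 0.60 for neutrophil markers. They were -0.06 to 0.82 for plasmacytoid dendritic cell, -0.43 to 0.49 for macrophage, -0.24 to 0.67 for epithelial and -0.11 to 0.18 for endothelial markers. The part of these cells in the member values was not tested.

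**Figure D2:**
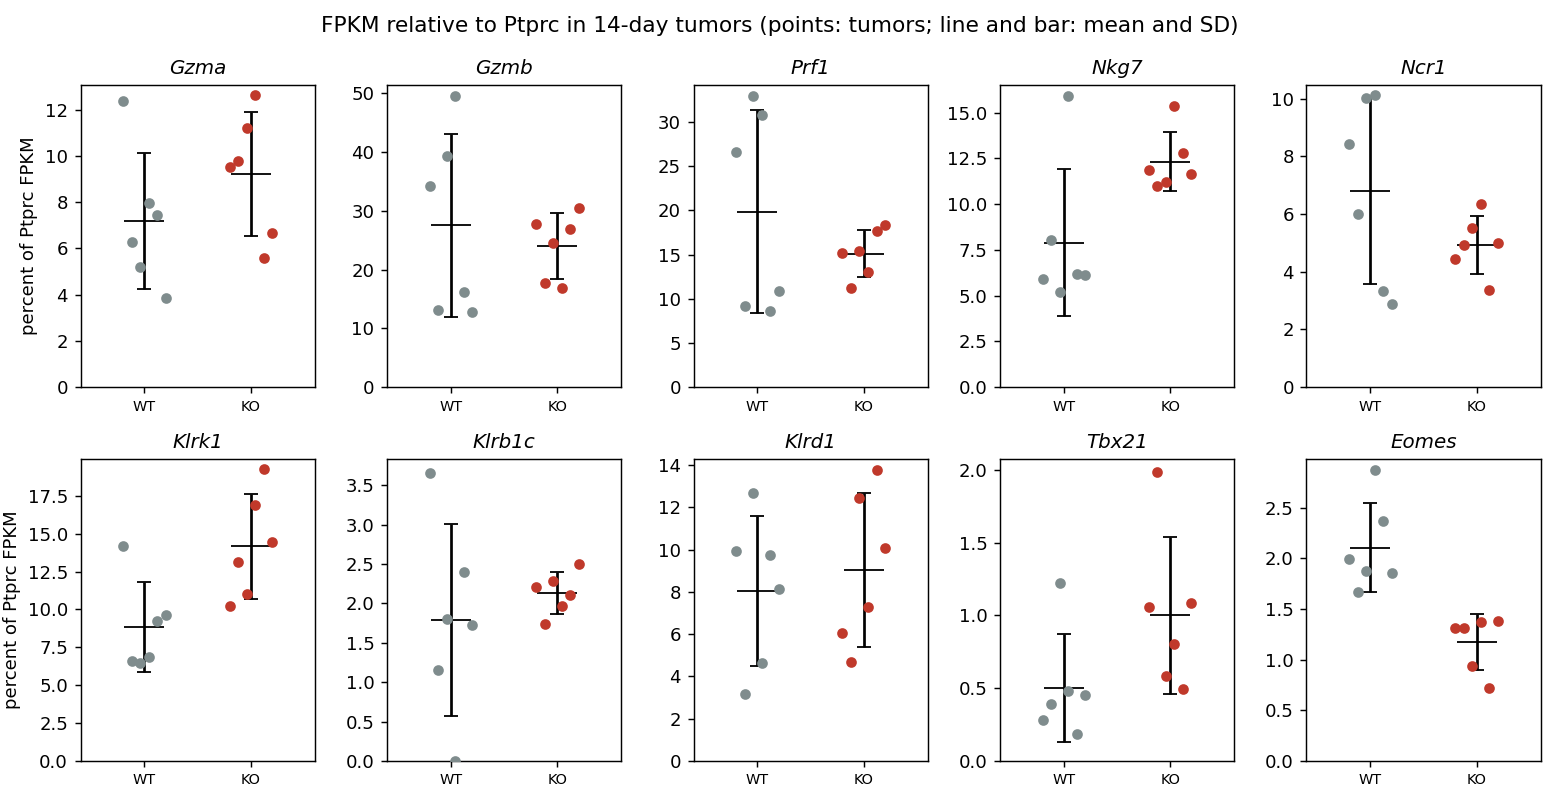
Level of each of the 10 genes as a percent of the FPKM of Ptprc in the same tumor, with 1 point per tumor, a line at the group mean and a bar of 1 SD either side. Eomes is the gene whose groups lie apart, with KO tumors at 0.722 to 1.38% and WT tumors at 1.67 to 2.88%.

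Relative to Ptprc in the same tumor, most of the members overlapped between the hosts. Nkg7 was at 12.3 ± 1.62% of the Ptprc level in KO tumors (SD, n = 6) and at 7.90 ± 4.03% in WT tumors (SD, n = 6), and WT tumor 4, at 15.9%, was above all KO tumors. Klrk1 was at 14.2 ± 3.47% and 8.83 ± 2.98% (SD, n = 6 each), also with overlap. Eomes was lower in KO tumors, at 1.17 ± 0.275% against 2.11 ± 0.443% (SD, n = 6 each), and the groups did not overlap, which held for 2.74% of all genes. Relative to Cd3e, a T cell receptor gene, Eomes was again the member whose groups lay apart, against 11.3% of all genes. Gzmb, Prf1 and Ncr1 had lower means relative to Ptprc in KO tumors than in WT tumors, at 24.02 against 27.52%, 15.1 against 19.8% and 4.93 against 6.79%, all with overlap.

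**Figure D3:**
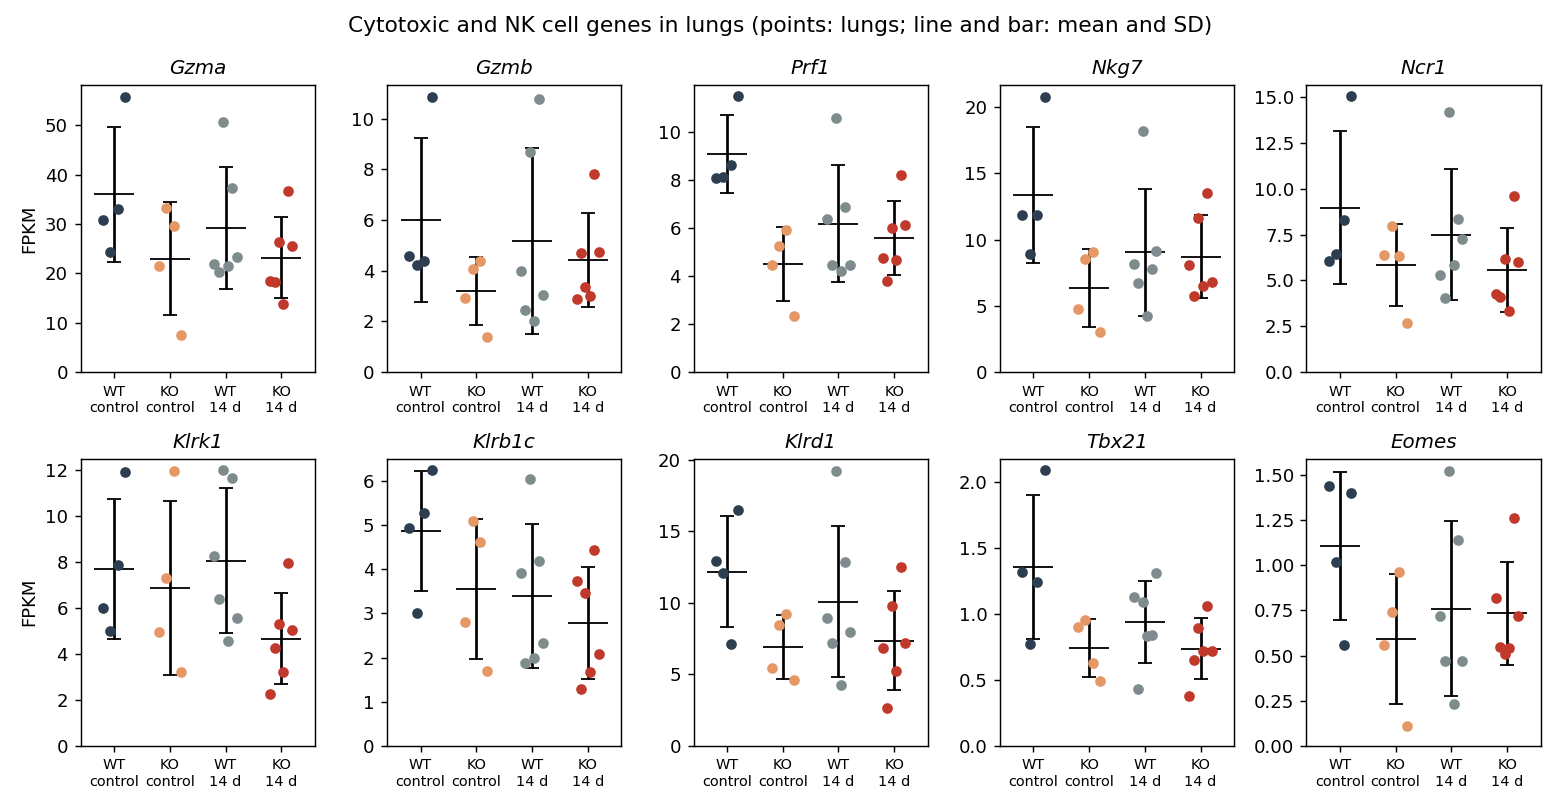
FPKM of the 10 genes in each of the 20 lungs, for WT and KO mice without a tumor (control) and after 14 days of a tumor, with 1 point per lung, a line at the group mean and a bar of 1 SD either side. Prf1 is the gene whose WT and KO control lungs lie apart, at 8.08 to 11.48 and 2.33 to 5.92 FPKM.

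In lungs without a tumor, no member was called between the genotypes, where 0.0187% of all genes were called, but all 10 had a lower estimate in KO mice. A negative estimate was found for 50.9% of all genes. Prf1 was at 4.47, 5.24, 5.92 and 2.33 FPKM in the 4 KO control lungs and at 8.08, 8.12, 8.6 and 11.48 FPKM in the 4 WT control lungs. The groups did not overlap, which held for 6.24% of all genes (log2 fold change -1.01 ± 0.28 SE, unadjusted p = 0.00142, adjusted p = 0.233 in edgeR). At a looser limit, an FDR of 0.25 with a 1.5-fold change, Prf1 passed, as did 0.231% of all genes. Nkg7 was at 4.75, 8.52, 9.09 and 3.06 FPKM in KO lungs and at 11.87, 8.93, 11.86 and 20.8 FPKM in WT lungs. The groups overlapped by KO lung 3, at 9.09 FPKM, and lay apart in TMM-normalized CPM (counts scaled to the library), as 7.26% of all genes did (-1.06 ± 0.38 SE, adjusted p = 0.306). Klrd1 was at 5.45, 8.43, 9.24 and 4.61 FPKM in KO lungs and at 12.94, 12.12, 7.12 and 16.52 FPKM in WT lungs (-0.81 ± 0.38 SE, adjusted p = 0.422), and only WT lung 3 fell into the KO range.

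The factor genes were at similarly lower estimates in KO control lungs. Tbx21 was at 0.9, 0.95, 0.63 and 0.49 FPKM in KO lungs and at 1.32, 0.77, 1.24 and 2.09 FPKM in WT lungs (-0.87 ± 0.33 SE, adjusted p = 0.332). Eomes was at 0.56, 0.74, 0.96 and 0.11 FPKM in KO lungs and at 1.44, 1.02, 0.56 and 1.4 FPKM in WT lungs (-0.99 ± 0.45 SE, adjusted p = 0.406). In both, one WT lung fell among the KO lungs. These 5 members had an unadjusted p under 0.05, in the direction that held for 6.26% of all genes at that p. The members varied together between lungs, so these are not 5 separate observations. The other 5 ranged from -0.40 (Klrk1) to -0.90 (Gzmb), and the median over the 10 members was -0.84 against 0.00 over all genes. KO control lung 4 was the lowest of its group for all 10 members, and WT control lung 4 was the highest of its group for 9, so that the median was -0.54 without WT lung 4 and -0.65 without KO lung 4, with all 10 estimates still negative.

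T cell markers had lower estimates in the same lungs. All 13 of them (median -0.47) had negative estimates between KO and WT control lungs, as did 12 of 14 other NK receptor genes (median -0.43), and none was called. The summed T cell markers were at 71.1 to 113 FPKM in KO and 104 to 134 FPKM in WT control lungs. The macrophage markers had a median of 0.00 and Ptprc a log2 fold change of -0.24 ± 0.17 SE (adjusted p = 0.599). Relative to Ptprc, Prf1 and Nkg7 lay apart between the genotypes, against 11.1% of all genes, and relative to Cd3e no member did, against 10.6% of all genes. The part of these markers in the member values was not tested.

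In lungs of tumor-bearing mice, the genotypes overlapped for every member. Groups lay apart for 0.518% of all genes. No member was called, where 0.0936% of all genes were called. All 10 estimates were below 0, from -0.06 (Eomes) to -0.52 (Klrk1), with a median of -0.29, and a negative estimate was found for 49.4% of all genes. Klrk1 was at 2.27, 4.65 and 7.97 FPKM in KO lungs and at 4.54, 7.32 and 12.01 FPKM in WT lungs (-0.52 ± 0.24 SE, adjusted p = 0.588). The groups overlapped from 4.54 to 7.97 FPKM. WT lung 3 was the highest of its group for 8 of the 10 members, and without it 6 of 10 estimates were below 0, with a median of -0.06.

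Averaged over both settings, KO lungs had the lower estimate for all 10 members, with a median of -0.55, while 51.1% of all genes had a lower estimate and 0.175% were called. None of the members was called. Prf1 (-0.58 ± 0.18 SE, unadjusted p = 0.0038, adjusted p = 0.24) had the smallest p, followed by Tbx21 (-0.61 ± 0.22 SE, adjusted p = 0.289) and Klrd1 (-0.62 ± 0.25 SE, adjusted p = 0.347). In all, 7 of the 10 had an unadjusted p under 0.05 in this direction, against 5.78% of all genes. The members varied together between lungs, so these are not 7 separate observations. The median was -0.39 without WT 14-day lung 3 and -0.40 without WT control lung 4, with all 10 estimates still negative.

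The next question was whether a distant tumor went with a change of these genes in the lung. In WT lungs all 10 estimates after 14 days were below those of controls, with a median of -0.42, and none was called. No gene at all was called by edgeR in this comparison (0% of 16029), in which 1884 genes had an unadjusted p under 0.05 and DESeq2 called 78. A negative estimate was found for 49.3% of all genes, and groups lay apart for 2.43% of them and for no member. Prf1 was the member with an unadjusted p under 0.05 (-0.54 ± 0.24 SE, unadjusted p = 0.0336, adjusted p = 0.382 in edgeR), with 14-day lungs at 4.19, 5.425 and 10.57 FPKM. Those lungs reached into the WT control range of 8.08 to 11.48 FPKM through WT lung 3.

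In KO lungs 7 of 10 estimates were above those of controls and 3 below, with a median of 0.05. None of the members was called, where 0.0374% of all genes were, and a positive estimate was found for 51% of all genes. Groups lay apart for no member and for 1.78% of all genes. The largest were 0.46 ± 0.47 SE for Gzmb and 0.45 ± 0.37 SE for Nkg7. KO 14-day lung 5 was the highest of its group for all 10 members. The difference between the 2 lung responses, tested as an interaction, was positive for 9 of 10 members with a median of 0.46, and none was called (0.00624% of all genes were, and 50.1% were positive). Prf1 had an interaction of 0.86 ± 0.36 SE (adjusted p = 0.522) and Nkg7 of 0.99 ± 0.49 SE (adjusted p = 0.598). Averaged over the genotypes, 9 of 10 estimates were below 0 with a median of -0.13, and none was called, where 0.243% of all genes were and 48.5% had a negative estimate. In that average the neutrophil markers Cxcr2 (1.18, adjusted p = 0.0251), S100a8 (1.84, adjusted p = 0.0439) and S100a9 (1.87, adjusted p = 0.0439) were higher in tumor-bearing mice.

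**Figure D4:**
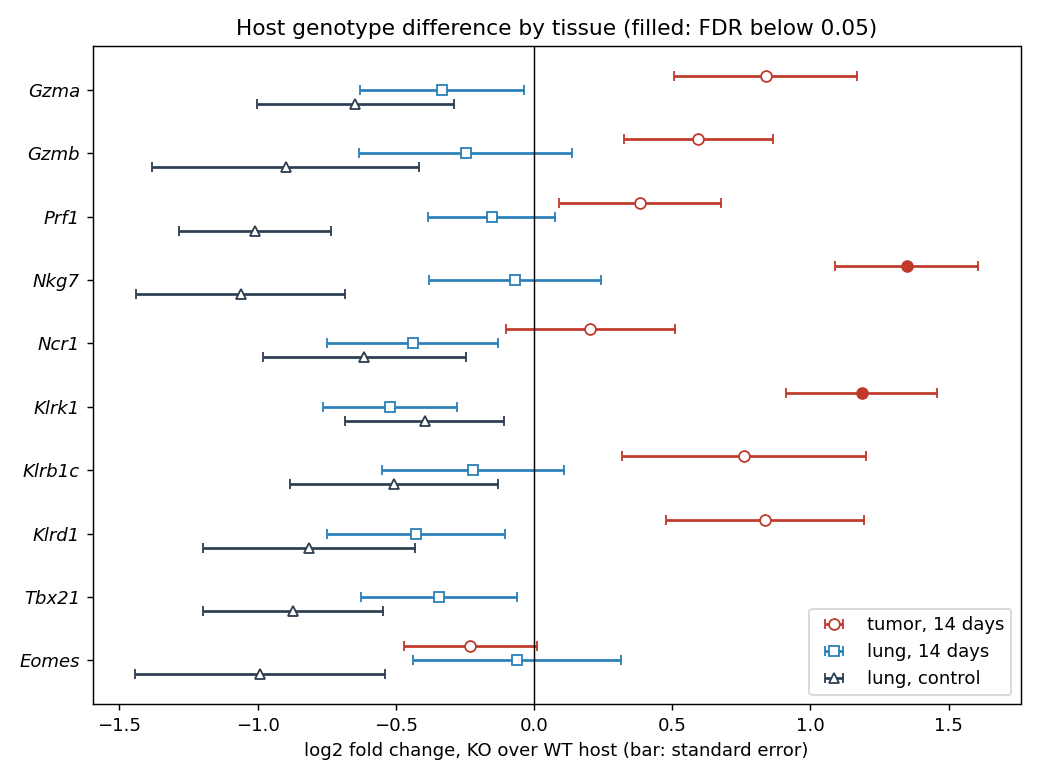
Log2 fold change of KO over WT for each gene in tumors, 14-day lungs and control lungs, with bars of 1 SE either side and filled points for called genes. Nkg7 and Klrk1 are the called genes in tumors, where Tbx21 was not tested, and estimates in control lungs lie below 0 for all 10.

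Whether the host genotype effect differed between the tumor and the tumor-bearing lung was tested in one fit of all 32 samples, as the effect in tumors minus that in 14-day lungs. Whether a tumor and a lung with the same number came from one mouse is not given in the sources used here, and the fit treats all samples as separate. It differed for Klrk1, where 1.06% of all genes were called. For Klrk1 the difference was 1.69 ± 0.38 SE (adjusted p = 0.0196 in edgeR). In the separate fits of tumors and of lungs the effects were 1.19 and -0.52. Tbx21 passed the filter only through the lungs, where it was higher, and its value is given as a description. It was 1.99 ± 0.51 SE (adjusted p = 0.0463 in edgeR), with counts of 1 to 11 in tumors and 4 to 17 in 14-day lungs. That p passed the limit narrowly, and the call was lost without the filter (adjusted p = 0.0773) and with only the compared groups in the fit (adjusted p = 0.0689), while DESeq2 gave it no adjusted p. Tbx21 was called in 8 of the 24 fits that left out 1 library (adjusted p of 0.0258 to 0.113) and Klrk1 in all 24 (0.00332 to 0.0465). Nkg7, the member most clearly apart in tumors, had a difference of 1.41 ± 0.45 SE (adjusted p = 0.136), and Eomes one of -0.19 ± 0.48 SE (adjusted p = 0.929). The median over the members was 1.05, and 9 of 10 were positive, as were 48% of all genes.

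Tumor and 14-day lung differed for most genes of the table, so that the calls of members are given as a description and not read as particular to them. In WT hosts, 8 of 10 members were called, 7 lower and 1 higher in the tumor, where 75.9% of all genes were called. Gzma was at 1.53, 2.225 and 6.53 FPKM in WT tumors and at 20.19, 22.55 and 50.7 FPKM in WT lungs. The groups did not overlap, which held for 49.1% of all genes, and Gzma was 8.95-fold lower in the tumor (log2 fold change -3.16 ± 0.36 SE, adjusted p = 2.63e-09 in edgeR). Gzma and Tbx21 were the 2 members whose groups lay apart. Tbx21 (-2.25 ± 0.38 SE, adjusted p = 3.62e-06) entered this fit only through the lungs, where it was higher, and was called without the filter as well (-2.27, adjusted p = 4.78e-06 in edgeR). Klrb1c (-2.07 ± 0.41 SE), Nkg7 (-1.53 ± 0.33 SE), Klrd1 (-1.49 ± 0.37 SE), Ncr1 (-1.45 ± 0.33 SE) and Klrk1 (-0.96 ± 0.28 SE) were lower. Gzmb was higher in the tumor, at 5.1, 9.55 and 18.02 FPKM against 2.02, 3.52 and 10.78 FPKM (0.99 ± 0.35 SE, adjusted p = 0.0129 in edgeR), and the groups overlapped. Prf1 (0.29 ± 0.28 SE) and Eomes (0.22 ± 0.34 SE) were not called. Ptprc was lower in the tumor by a log2 fold change of -1.01 ± 0.18 SE, and the median over the members was -1.47.

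In KO hosts 6 members were called, 3 in each direction, where 74.4% of all genes were called. Gzmb (1.81 ± 0.36 SE, adjusted p = 3.33e-05), Prf1 (0.81 ± 0.27 SE, adjusted p = 0.00855) and Klrk1 (0.73 ± 0.26 SE, adjusted p = 0.0137) were higher in the tumor. Gzma (-2.02 ± 0.34 SE, adjusted p = 3.1e-06), Klrb1c (-1.11 ± 0.39 SE, adjusted p = 0.0111) and Ncr1 (-0.83 ± 0.34 SE, adjusted p = 0.0267) were lower, and Gzma and Gzmb were the members whose groups lay apart, against 47.6% of all genes. At a 2-fold change 3 of the 6 members passed, where 37.9% of all genes passed. Klrk1 was thus lower in tumor than in lung of WT hosts and higher in KO hosts.

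The granzymes outside the list were found in tumors and hardly in lungs. Gzmc, Gzmd, Gzme, Gzmf and Gzmg, granzymes of activated mouse killer cells, were named after their values were seen. In the 12 tumors Gzmc was at 13.5 to 85.1 FPKM, Gzmd at 12.6 to 80.4, Gzme at 6.32 to 42.8, Gzmf at 11.2 to 82.2 and Gzmg at 13.8 to 85.9 FPKM, while the 20 lungs held at most 1.0 FPKM of any of them. In both tumor groups the means of all 5 were above that of Gzmb, whose 12 tumors were at 5.1 to 20.83 FPKM.

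**Figure D5:**
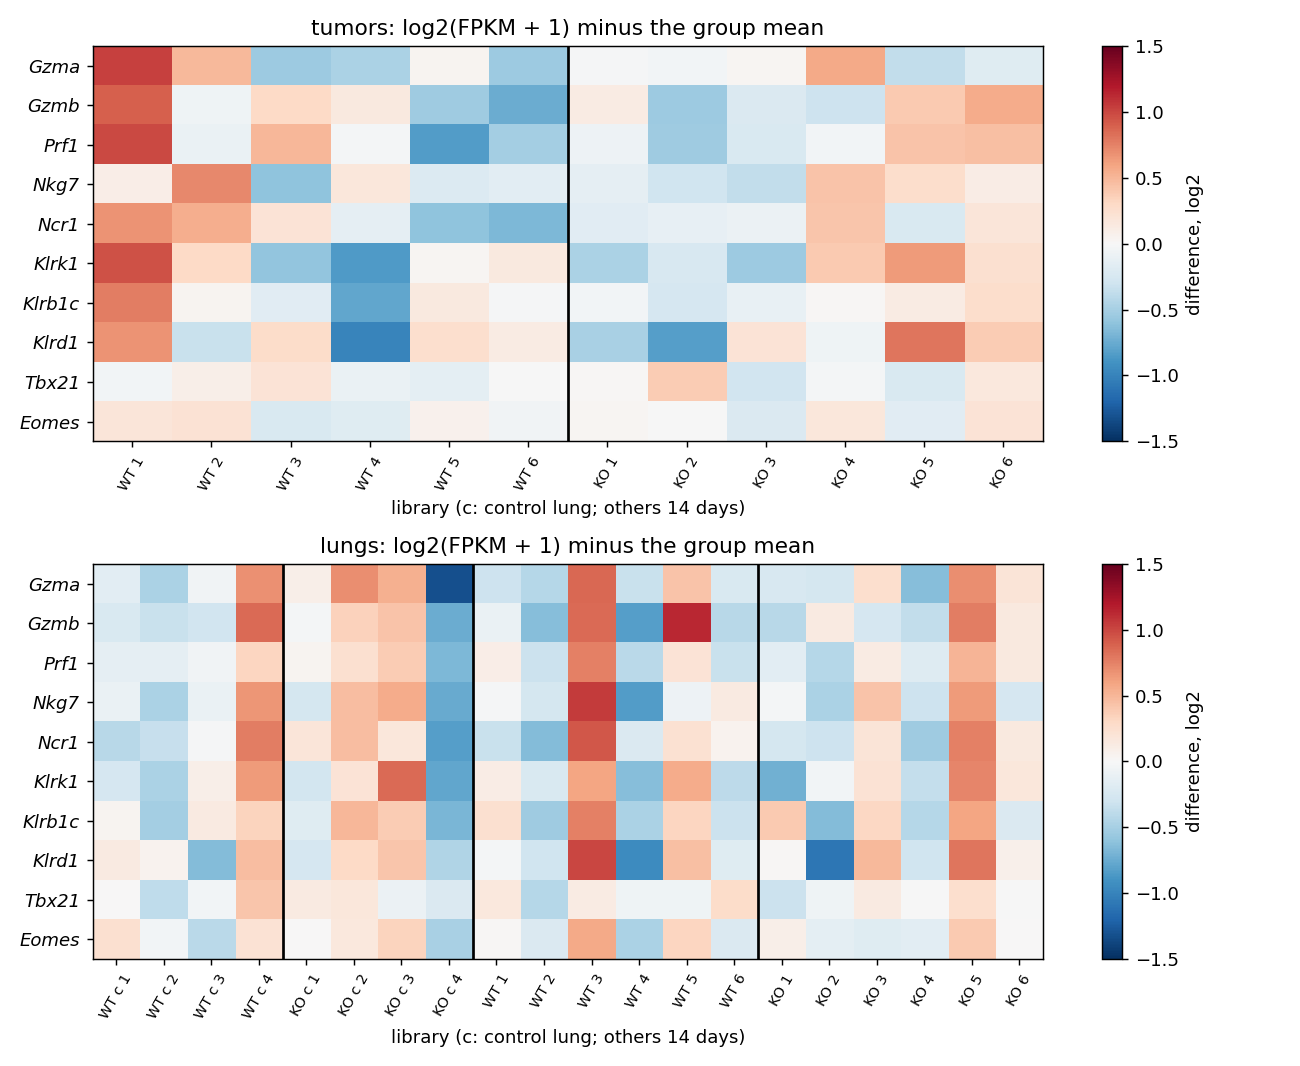
Deviation of each gene from the mean of its group on the log2(FPKM + 1) scale, for each of the 12 tumors and 20 lungs (color scale). Lungs show columns of 1 color, such as KO 14-day lung 5, highest of its group for all 10 genes, and KO control lung 4, lowest for all 10, and tumors show them less.

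Within groups the members varied together, more so in lungs than in tumors. As deviations from the group mean of log2 TMM-normalized CPM, the 45 pairs of members in the 20 lungs all had a positive Pearson r, from 0.35 to 0.94 with a median of 0.80. In the 12 tumors 33 of 36 pairs were positive, from -0.22 (Nkg7 with Klrd1) to 0.93, with a median of 0.41. These are descriptions over libraries that each share one depth and one piece of tissue. The genes whose deviations were most like the mean of the members over the 20 lungs were Ccl5 (r = 0.91), a chemokine gene of killer cells, Il18rap (0.90), Gm4759 (0.89), Klra4 (0.88), a receptor gene of the Ly49 family, and Il2rb (0.87), a receptor chain for interleukins 2 and 15. Over the 12 tumors they were Apaf1 (r = 0.93), Bcl2a1b (0.92), Tbc1d31 (0.92), Parvg (0.92) and Stat4 (0.91), the last a transducer of interleukin 12 signals. Ptprc itself had an r of 0.81 in lungs and 0.71 in tumors.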

How the data were processed

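RNA from 12 tumors and 20 lungs was sequenced as stranded, paired-end mRNA libraries, and the authors aligned reads to GRCm38 with STAR and quantified genes with RSEM. The deposited expected counts are RSEM's estimated counts per gene as whole numbers, without normalization, and the deposited FPKM values are those the authors took from RSEM, scaled for effective transcript length and depth. FPKM and counts can therefore order samples differently for genes with several transcripts, such as Klrk1 with 6. The strand setting of the counting is not given in the sources used here.

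Groups came from the sample titles. The 10 genes, the 19 lists of related genes and markers, the promoter motifs and the tests were chosen with earlier results of these data known. Named are the 10 members, Clic4, Ptprc, Cd3e, Cd4 and Cd8a, of each other list up to 3 called genes with the smallest p, and the 5 genes most like the members in each tissue. Il15ra, Il18r1, Il2rb and Gzmc to Gzmg were named outside this rule. Gzmn, Raet1a, Raet1b, Raet1c and Nectin2 were not matched.

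The quasi-likelihood F test of edgeR 4.0.16 (R 4.3.3, limma 3.58.1), with TMM scaling (trimmed mean of M values) and filterByExpr, was fitted to 12 tumors (13830 genes), to 20 lungs (16029 genes) and to all 32 samples (16825 genes), with 1 mean per group and no replicate block, for 11 comparisons. The SE is the size of the log2 fold change divided by the square root of F. Likeness used log2 CPM with a prior count of 2. Depth was 4446323 to 8318711 counts per library. As alternatives, DESeq2 1.42.0 replaced edgeR, RLE size factors replaced TMM, the filter was dropped or set to 10 counts in all samples, the replicate number entered as a block, fits held just the groups compared, the limits were an FDR of 0.25 with a 1.5-fold change or of 0.05 with a 2-fold change, CPM replaced FPKM, and single libraries were left out in turn. On simulated data with 200 genes changed 2-fold, edgeR recovered 83.5% in tumors with 4.57% false calls (13673 genes) and 82% in lungs with 4.65% (15878 genes). The 200 genes were drawn at random from genes of all levels that passed the filter. The share recovered among genes with counts as low as those of the members was not computed. Tables were handled in Python 3.11.15 with numpy 2.4.6, pandas 2.3.3 and scipy 1.17.1, and figures drawn with matplotlib 3.10.9. The images and proteomic data of the study were not analysed here. Some trafficking and lymphocyte marker results are not reported here.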

Additional observations from a re-analysis of the deposited data

Results flagged for a closer look

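In 5 of the 60 sets of 1 member in 1 group, the highest sample stood far from the others by Dixon's test, where chance flags about 1 in 20 sets. They were Gzma in the tumor from KO host 4 (8.32 FPKM), Gzmb in KO 14-day lung 5 (7.83 FPKM), Gzmb and Prf1 in WT control lung 4 (10.86 and 11.48 FPKM) and Nkg7 in WT 14-day lung 3 (18.2 FPKM). These 3 lungs were also the highest of their groups for 8 to 10 of the 10 members.

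The host genotype effect differed between tumor and 14-day lung, by the test of the difference itself, for Klrk1 (1.69), as the log2 fold change in tumors minus that in lungs. Tbx21 (1.99) also passed the threshold, but it entered the fit only through the lungs, where it was higher, and its value is a description. The Tbx21 call was lost without the filter (adjusted p = 0.0773 in edgeR), with only the compared groups (adjusted p = 0.0689) and in 16 of the 24 fits that left out 1 library, and DESeq2 gave it no adjusted p.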

How the results depend on the processing

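Of 2101 recomputed values of single members, 2008 kept their direction and side of the threshold, 61 changed direction, 31 lost their call and 1 gained one, and none of the values that changed direction belonged to a called result. In tumors, KO against WT, 2 members were called, 1 with at least 10 counts in every sample (of 3 tested) and 1 with the replicate block, which lost Klrk1 (1.23, adjusted p = 0.0911 in edgeR), and 1 to 3 with a library left out. In control lungs 1 member (Prf1) passed an FDR of 0.25 with a 1.5-fold change, and 2 members instead of 1 lay apart in TMM-normalized CPM. Between tumor and 14-day lung the 8 calls in WT hosts became 1 with at least 10 counts (of 2 tested) and 7 to 8 with a library left out, and the 6 calls in KO hosts became 3 at a 2-fold change, 2 with at least 10 counts and 5 to 6 with a library left out. Gzmb was not called in WT hosts in 1 such fit, and Ncr1 not in KO hosts in 2. For the genotype effect in tumor minus that in lung, 2 calls became 1 under DESeq2, no filter, at least 10 counts, the replicate block or only the compared groups, and 1 to 2 with a library left out. Tbx21 was the call lost without the filter (1.999, adjusted p = 0.0773), with the block (1.96, adjusted p = 0.0872) and in the compared groups (1.99, adjusted p = 0.0689), and DESeq2 gave it no adjusted p. In the 7 lung comparisons 0 members were called in any fit with a library left out (0 to 0). The block turned Gzma (-0.12), Klrd1 (-0.045) and Tbx21 (-0.11) in KO lungs at 14 days against controls, and Gzmb (-0.18) in the mean over genotypes, and Eomes between tumor and lung of KO hosts turned under DESeq2 (-0.026), RLE size factors (-0.023) and in the compared groups (-0.012). The cause was not tested for any of these, beyond the fewer genes and samples that some settings hold.

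The following values, as log2 fold changes, changed direction when 1 library was left out. In WT lungs at 14 days against controls, Gzmb ranged from -0.54 to 0.24, Ncr1 from -0.54 to 0.11 and Klrk1 from -0.29 to 0.070. In KO lungs at 14 days against controls, Gzma ranged from -0.26 to 0.23, Ncr1 from -0.30 to 0.094, Klrk1 from -0.42 to 0.047, Klrd1 from -0.098 to 0.23 and Tbx21 from -0.13 to 0.13. In KO against WT 14-day lungs, Gzmb ranged from -0.47 to 0.099, Prf1 from -0.28 to 0.076, Nkg7 from -0.22 to 0.27, Klrb1c from -0.39 to 0.073 and Eomes from -0.29 to 0.23. In the interaction, Ncr1 ranged from -0.18 to 0.47 and Klrk1 from -0.31 to 0.17. In 14-day against control lungs averaged over genotypes, Gzma ranged from -0.28 to 0.008, Gzmb from -0.039 to 0.35, Nkg7 from -0.21 to 0.097, Ncr1 from -0.30 to 0.022 and Eomes from -0.23 to 0.070. In tumor against lung in WT hosts, Prf1 ranged from -0.039 to 0.52. In tumor against lung in KO hosts, Nkg7 ranged from -0.22 to 0.024 and Eomes from -0.059 to 0.27. In the genotype effect in tumor minus that in lung, Eomes ranged from -0.48 to 0.043.

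Over all genes, counts of calls that moved by more than 1.5 times were the following. DESeq2 called 549 genes in tumors against 347, in lungs 78 against 0 (WT at 14 days against controls), 69 against 6 (KO), 71 against 15 (KO against WT at 14 days), 43 against 3 (controls), 16 against 1 (interaction), 141 against 39 (mean over genotypes) and 77 against 28 (mean over settings), and 303 against 179 for the genotype effect in tumor minus that in lung. DESeq2 gave no adjusted p for all 10 members in control lungs and in the interaction. The replicate numbers were checked as pairs, and deviations of tumors with the same number in KO and WT hosts had an r of -0.28 to 0.11, those of 14-day lungs of -0.08 to 0.24. Tumors and 14-day lungs with the same number had an r of 0.038 to 0.175 in KO hosts, where 4 of 6 matched best with their own number, and of -0.019 to 0.074 in WT hosts. No set had every r over 0.1, so the number was not taken to pair the samples. With the number as a block, 13, 24, 10, 2, 0, 108 and 18 genes were called in the 7 lung comparisons, in the order above. With only the compared groups, 0 (KO at 14 days against controls), 6 (KO against WT at 14 days), 6 (controls) and 114 (tumor minus lung) genes were called. At an FDR of 0.25 with a 1.5-fold change the counts were 532 in tumors, 92, 42, 34, 37, 5, 92 and 38 in lungs and 573 for tumor minus lung, and at a 2-fold change 146 in tumors, 0, 0, 2, 1, 0, 9 and 3 in lungs, 6596 and 6382 between tissues and 93 for tumor minus lung (12773 and 12514 between tissues without it). With 1 library left out, 203 to 488 genes were called in tumors, 0 to 4, 0 to 6, 7 to 22, 1 to 3, 0 to 2, 2 to 76 and 11 to 39 in lungs and 114 to 323 for tumor minus lung.

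The limits lie in depth and number. Members with few counts, such as Tbx21, pass or miss the filter by a handful of reads, 4 control lungs per genotype leave wide errors, and single libraries carry much of the lung estimates.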
